A study of Mus musculus with 10 samples.

Results

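Mouse embryonic stem (ES) cells with an extra chromosome 8 (Ts8) were set against ES cells with an extra chromosome 11 (Ts11), so that each line served as the euploid comparison for the chromosome gained by the other. The arrays were taken by their titles, 2 of Ts8 and 2 of Ts11, which is 4 of the 10 samples of the series. Ts8 cells carried 3 copies of chromosome 8 and were taken at passages 10 and 13. Ts11 cells carried 3 copies of chromosome 11 and were taken at passages 8 and 11. The strain of both lines is labelled 129 S7/SvEvBrd, and their sex, parent line and number of clones are not given in the sources used here. For orientation, values are also given for lines trisomic for chromosome 6 (Ts6, passages 9 and 18) or 15 (Ts15, passages 11 and 14) and for the diploid male line AB1 (WT, passages 18 and 20), with 2 arrays each. All cells grew on gamma-irradiated SNL76/7 feeder cells, which were depleted by letting the harvested cells settle before RNA extraction. Amplified RNA labelled with Cy3 was hybridised to 1-colour Agilent arrays with probes for messenger RNAs and long intergenic noncoding RNAs (lincRNAs). Of 28193 genes tested, 1498 lay on chromosome 8 and 1996 on chromosome 11.

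An extra copy of a chromosome raises the template for every gene on it, and in most trisomic mammalian cells the transcripts of that chromosome rise together by about the change in copy number or somewhat less. Genes on other chromosomes can differ as well, through regulators on the extra chromosome, through the stress of surplus protein subunits, or because independently derived lines differ in state. Mouse ES cell cultures are themselves mixtures: a small fraction of cells passes at any time through a state that resembles the 2-cell embryo and is marked by Zscan4 and Dux, and naive pluripotency genes vary from cell to cell.

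Levels are given as log2 signal relative to the 75th percentile of the array, and differences as Ts8 minus Ts11 on that log2 scale. A gene was called at an adjusted p under 0.05 in a limma fit over all 10 arrays. On replicates 1 and 2, 80.2% and 74.9% of spots in Ts8 and 77.0% and 71.4% in Ts11 were well above background. The correlation between replicates was 0.992 in Ts8 and 0.993 in Ts11. The 4 arrays lay on slide 1, Ts8 in slide column 3 and Ts11 in slide column 4, so slide column and line cannot be told apart. The ES cell markers were high in both lines: Pou5f1 was at 4.54 and 4.52 in Ts8 and at 4.55 and 4.48 in Ts11, Nanog at 4.91 and 4.81 in Ts8 and at 4.89 and 4.88 in Ts11, and none of the 8 markers was called (adjusted p between 0.11 and 0.98). Feeder transcripts were still present. Of 11 fibroblast markers tested none was called (adjusted p between 0.39 and 0.99), Col1a2 was at 3.02 and 2.87 in Ts8 and at 3.25 and 2.96 in Ts11, and their summed linear level was 28.5 and 24.5 in Ts8 and 32.6 and 26.4 in Ts11.

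The extra chromosomes were both visible as a shift of the whole chromosome. Genes of chromosome 8 averaged 0.14 and 0.15 on the Ts8 arrays and −0.15 and −0.14 on the Ts11 arrays, relative to the mean of the 4 arrays and to the 15 autosomes trisomic in no line, a difference of 0.29 or 1.22-fold. Genes of chromosome 11 averaged −0.11 and −0.15 on the Ts8 arrays and 0.12 and 0.14 on the Ts11 arrays, a difference of −0.26, so that Ts11 was 1.20-fold higher. These differences are 49.4% and 44.3% of the 0.585 (log2) that 3 copies over 2 would give. In neither case did the arrays of the lines overlap, and each exact two-sided permutation test gave p = 0.333, the smallest value that 2 arrays against 2 allow. Chromosome X and the other autosomes except 3, 5, 7, 13 and 14 also had arrays without overlap and p = 0.333 in this permutation test. Their differences were as small as −0.0061 (chromosome 15), so neither outcome sets chromosomes 8 and 11 apart. Measured from the WT mean, which both lines share, chromosome 8 was at 0.25 and 0.26 in Ts8 and at −0.03 and −0.03 in Ts11, and chromosome 11 was at −0.02 and −0.06 in Ts8 and at 0.21 and 0.23 in Ts11. The differences of the other autosomes ran between −0.04 (chromosome 17) and 0.07 (chromosome 12), and that of chromosome X was −0.16.

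**Figure D1:**
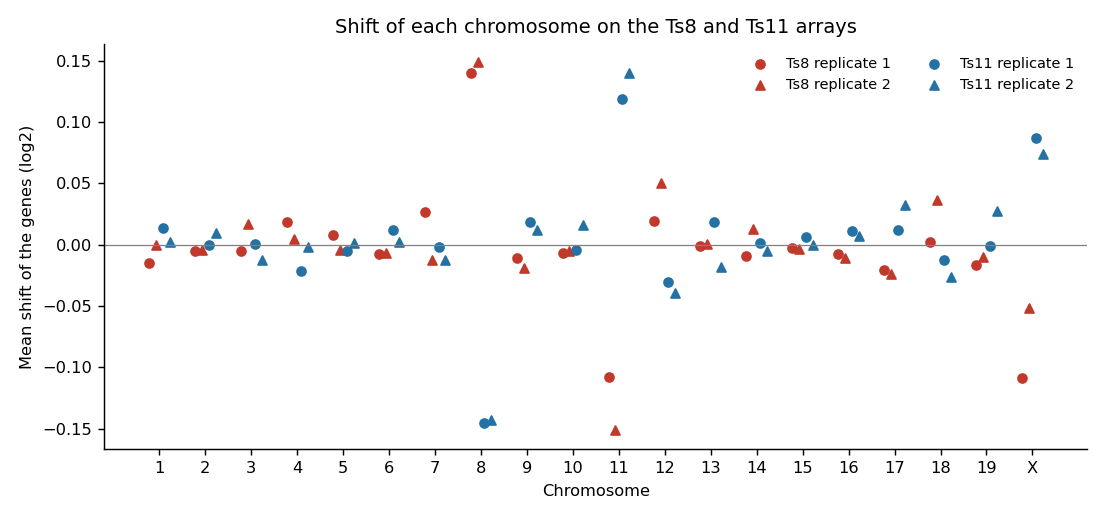
Mean log2 shift of each chromosome's genes per array, with Ts8 and Ts11 arrays as points, relative to the mean of the 4 arrays and to 15 reference autosomes. Ts8 arrays sit at 0.14 and 0.15 on chromosome 8 and Ts11 arrays at 0.12 and 0.14 on chromosome 11, and the differences on the other autosomes stay within −0.04 and 0.07.

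Most genes of both chromosomes moved with their copy number, though few did so far enough to be called singly. On chromosome 8, 274 of 1498 genes (18.3%) were higher in Ts8 and 13 were lower, against 4.52% higher and 3.3% lower over all genes tested. On chromosome 11, 268 of 1996 genes (13.4%) were lower in Ts8 and 43 were higher. The median difference was 0.29 on chromosome 8, −0.22 on chromosome 11 and 0.03 on the other chromosomes, and 81.6% of chromosome 8 genes but 28.4% of chromosome 11 genes lay above 0. A difference beyond the copy-number ratio was seen for 22.4% of chromosome 8 genes in the direction of Ts8 and for 16.2% of chromosome 11 genes in the direction of Ts11, against 7.25% and 4.92% of the genes off both chromosomes in the same directions. All 2202 called genes had Ts8 arrays that did not overlap the Ts11 arrays, as had 49.4% of all genes tested. The counts rest on the whole set of arrays: without Ts8 replicate 2, 110 chromosome 8 genes were called higher and 76 chromosome 11 genes lower, without Ts11 replicate 1 the counts were 111 and 96, without Ts11 replicate 2 they were 140 and 100, and without Ts8 replicate 1 they were 176 and 222.

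By their medians, and without allowing for their offset on other chromosomes, lincRNAs followed this pattern on chromosome 8 but hardly on chromosome 11. Of 271 chromosome 8 lincRNAs, 48 were higher in Ts8, with a median of 0.26 beside 0.30 for the other genes there. Of 174 chromosome 11 lincRNAs, 8 were lower in Ts8, with a median of −0.02 beside −0.23 for the other genes there. LincRNAs off both chromosomes had a median of 0.08, beside 0.02 for the other genes there. How far this offset of lincRNAs towards Ts8 enters the contrast between chromosomes 8 and 11 was not tested. Signal also mattered on chromosome 11, where with all genes ranked by mean signal and divided into 3 equal classes, the dimmest class had a median of −0.04, the middle class −0.28 and the brightest class −0.25. On chromosome 8 the same classes had medians of 0.29, 0.34 and 0.27. The part of signal in the lincRNA values was not tested.

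**Figure D2:**
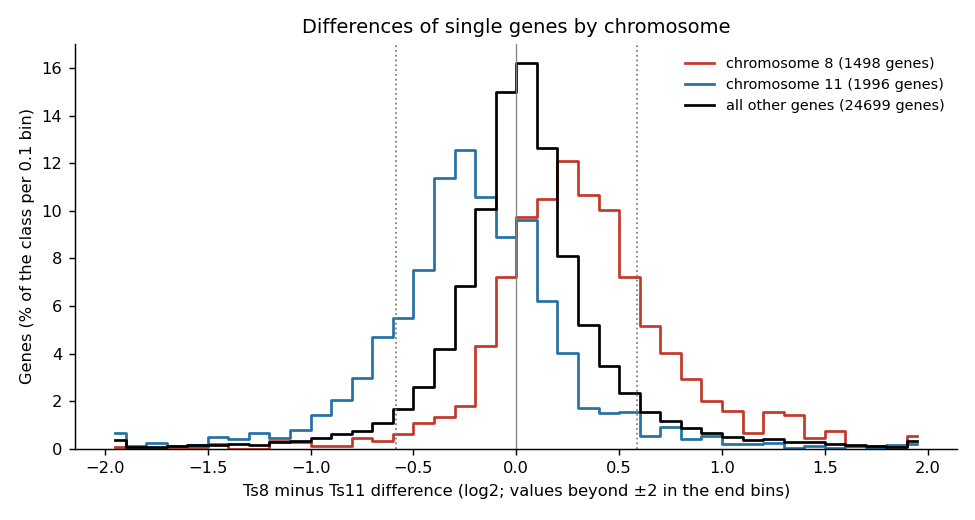
Distribution of the Ts8 minus Ts11 difference (log2) over the genes of chromosome 8, chromosome 11 and all other genes, as the percentage of genes per bin, with dotted lines at the copy-number ratio of 0.585 in either direction. The median is 0.29 for chromosome 8, −0.22 for chromosome 11 and 0.03 for the others.

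The shifts ran along both chromosomes rather than coming from a single stretch. In windows of 10 Mb with at least 20 genes, the mean difference in the direction of the extra copy was above 0 in all 13 windows of chromosome 8, between 0.17 (30 to 40 Mb) and 0.39 (20 to 30 Mb). It was also above 0 in all 13 windows of chromosome 11, between 0.11 (10 to 20 Mb) and 0.34 (100 to 110 Mb). The window of chromosome 11 from 90 to 100 Mb had a mean of 0.15 and held 17 genes called against the copy number beside 31 called with it, while no other window on either chromosome held more than 5 of the first kind. Chosen after the values were seen, a cluster within it at chr11:94505813-94722131 (mm9) held 6 genes higher and 3 genes lower in Ts8 of 12 tested. Another stretch of the same window, also chosen after the values were seen, at chr11:99339393-99798506 beginning at the keratin gene Krt23, held 7 genes higher and 1 lower of 25 tested. Over all chromosome 11 genes tested 2.15% were higher and 13.4% lower.

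**Figure D3:**
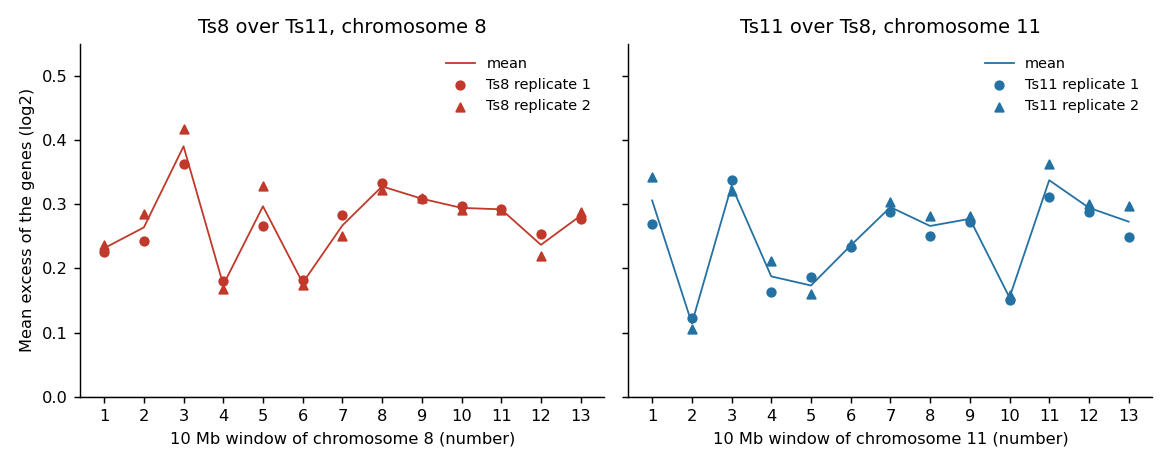
Mean difference in the direction of the extra copy (log2) in 10 Mb windows along chromosome 8 and chromosome 11, by replicate of the trisomic line (points) and as their mean (line), with windows numbered from the start of the chromosome. All 26 described windows are above 0, and the lowest is 0.11 on chromosome 11.

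On chromosome 8 the largest differences exceeded what copy number gives. Trim67, which encodes a TRIM-family ubiquitin ligase (chr8:127353219-127353278), was at −1.86 and −1.08 in Ts8 and at −3.83 and −4.55 in Ts11, a difference of 2.72 ± 0.37 (SE) or 6.58-fold with an adjusted p of 0.0054. WT was at −2.39 and −3.21, between the lines. Pdlim3, an actinin-associated LIM protein, was at −0.97 and −0.99 in Ts8 and at −3.02 and −2.76 in Ts11 (1.91 ± 0.16, adjusted p = 0.00094). Cdh3, which encodes P-cadherin, was at 0.96 and 0.91 in Ts8 and at −0.67 and −0.62 in Ts11 (1.58 ± 0.15, adjusted p = 0.0014). WT cells had Cdh3 at −0.30 and −0.19, nearer to Ts11, and its neighbour Cdh1, the E-cadherin of ES cell junctions, differed by 0.49 (adjusted p = 0.049). The C-type lectin gene Cd209f (1.58), the tRNA methyltransferase-like Trmt9b (1.53) and the zinc-finger gene Zfp353 (1.52) completed the highest 6. For Zfp353 the WT arrays overlapped those of Ts8. Cd209f and Trmt9b were well above background on only 1 of the 2 Ts11 arrays.

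A few chromosome 8 genes were lower in Ts8 in spite of the extra copy. Mt4, the metallothionein of stratified epithelia, was at −4.85 and −5.48 in Ts8 and at −3.41 and −3.92 in Ts11, 2.83-fold lower (SE 0.25 on the log2 scale, adjusted p = 0.013). Herpud1, which is induced by stress of the endoplasmic reticulum and helps to degrade misfolded proteins there, was at 1.41 and 1.43 in Ts8 and at 2.34 and 2.27 in Ts11 (−0.88 ± 0.12, adjusted p = 0.0058). Both lines exceeded WT in Herpud1, by 0.93 in Ts8 and by 1.81 in Ts11, 2 contrasts that share the WT arrays. Fgl1, a fibrinogen-like secreted protein, differed by −0.76. Its call was lost without any 1 of the 4 arrays (adjusted p between 0.062 and 0.13), and that of Mt4 without Ts8 replicate 2 (0.065) or Ts11 replicate 1 (0.066).

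On chromosome 11 the lowest genes in Ts8 included genes otherwise known from epithelia and the germline. Fam183b was at −1.91 and −2.40 in Ts8 and at 0.25 and 0.39 in Ts11 (−2.47 ± 0.38, adjusted p = 0.0086), and lost its call without Ts8 replicate 2 (0.058). Krt23, a type I keratin, was at −2.94 and −3.17 in Ts8 and at −0.93 and −0.82 in Ts11 (−2.18, adjusted p = 0.0041). Klhl10, a cullin-3 adaptor of spermatids, was at −2.70 and −2.59 in Ts8 and at −0.79 and −0.35 in Ts11 (−2.08, adjusted p = 0.0011). The epidermal lipoxygenase gene Alox12e (−2.08), the citrate transporter gene Slc13a5 (−2.02) and the serine protease gene Prss38 (−1.98) followed, and Prss38 lost its call without Ts11 replicate 2 (0.051). For Klhl10 the difference from WT was −0.26 in Ts8 and 1.82 in Ts11, and for Prss38 it was 0.39 and 2.36. Most of the distance lay on the Ts11 side for both, as for Krt23 (−0.40 and 1.78) and Fam183b (−0.74 and 1.73). It was divided between the lines for Alox12e (−1.07 in Ts8 and 1.01 in Ts11) and Slc13a5 (−0.84 and 1.18). Alox12e was well above background on only 1 of the 2 Ts8 arrays.

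A few chromosome 11 genes were higher in Ts8 in spite of the extra copy in Ts11. Bhlha9, a basic helix-loop-helix factor of limb development, was at −1.17 and −1.36 in Ts8 and at −3.58 and −3.50 in Ts11, a difference of 2.28 ± 0.15 or 4.85-fold (adjusted p = 0.00044). WT stood at −1.34 and −1.05 and Ts15 at −1.61 and −1.34, close to Ts8, and Ts6 at −3.57 and −3.40, close to Ts11. Insyn2b, a factor of inhibitory synapses, differed by 2.06 (adjusted p = 0.0067), and was 0.30 from WT in Ts8 and −1.76 in Ts11. Ccl3, a chemokine gene, was at −2.20 and −2.17 in Ts8 and at −4.46 and −3.69 in Ts11 (1.89, adjusted p = 0.0035). Here the WT arrays, at −3.76 and −3.99, overlapped those of Ts11, and Ts8 stood 1.69 above WT (adjusted p = 0.020).

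Few genes of DNA replication and mitosis were called, and all of those lay on chromosome 8 or 11. Of 55 DNA replication genes, 2 (3.64%) were higher and 2 (3.64%) lower, close to the 4.52% and 3.3% over all genes tested. Orc6 (0.51) and Mcm5 (0.44) on chromosome 8 were higher in Ts8, and Cdc6 (−0.87) and Pold2 (−0.53) on chromosome 11 were lower. These genes load and drive the replicative helicase or, for Pold2, belong to polymerase delta. All 6 members on chromosome 8 lay above 0 and all 4 on chromosome 11 below it. Among 52 genes of mitosis and the kinetochore, Cenpn of chromosome 8 was higher (0.75) and Mis12 of chromosome 11 lower (−0.69), 1.92% in either direction. Of these calls only that of Cdc6 held without each single array: Orc6, Mcm5 and Pold2 lost theirs without any 1 of the 4 (adjusted p between 0.067 and 0.18 for Orc6, 0.097 and 0.13 for Mcm5, 0.088 and 0.18 for Pold2). Cenpn lost its call without Ts8 replicate 2 (0.11) or Ts11 replicate 1 (0.097), and Mis12 without Ts8 replicate 1 (0.059), Ts11 replicate 1 (0.081) or Ts11 replicate 2 (0.087).

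In limma, 0 members were called among 41 proteasome subunits (6 at an unadjusted p under 0.05), 77 cytosolic ribosomal proteins (0), 76 respiratory chain subunits (2), 41 heat shock and chaperone genes (4), 35 genes of sterol and fatty acid synthesis (0) and 23 DNA methylation and Tet genes (4). Under the other settings tried, between 0 and 3 proteasome subunits, at most 1 respiratory chain, heat shock or DNA methylation gene, and no ribosomal protein or sterol gene were called in either direction. The 7 proteasome subunits encoded on chromosome 11 had a median of −0.21, and 6 of them lay below 0. The 4 respiratory chain subunits there had a median of −0.24 and the 3 on chromosome 8 one of 0.02. The 3 ribosomal protein genes on chromosome 8 had a median of 0.23 and the 6 on chromosome 11 one of −0.07. Of 44 lysosome and autophagy genes 3 (6.82%) were lower in Ts8, beside 3.3% over all genes tested. They were Becn1 (−0.78) and Sqstm1 (−0.50), autophagy genes of chromosome 11, and Npc1 (−0.66), the lysosomal cholesterol transporter of chromosome 18. All 8 list members on chromosome 8 lay above 0 and all 8 on chromosome 11 below it. Sqstm1 lost its call without any 1 of the 4 arrays (adjusted p between 0.082 and 0.17), and Becn1 without Ts8 replicate 1 (0.053) or Ts11 replicate 2 (0.067).

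Off chromosomes 8 and 11, 956 of 24699 genes (3.87%) were higher in Ts8 and 648 (2.62%) lower. These 1604 genes outnumber the 598 called on the trisomic chromosomes. In bulk RNA, fewer cells of a type and less RNA per cell cannot be told apart, which holds for every gene below. Leaving out Ts8 replicate 2 reduced the count off both chromosomes to 768, Ts11 replicate 1 to 948 and Ts11 replicate 2 to 1014.

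The largest single difference belonged to a lincRNA of chromosome 14, annotated on the array as chr14:77077374-77086910 on the forward strand. It was at −4.05 and −4.35 in Ts8 and at 1.86 and 1.92 in Ts11, a difference of −6.09 ± 0.17 (SE) or 68.2-fold (adjusted p = 1.3e-05). Its 3 probes gave −6.09 to −5.79. WT was at −0.10 and 0.17 and Ts15 at −0.77 and −1.17, between the lines, and Ts6 at 2.21 and 2.31, above Ts11. A pair of further probes in the same span, chosen after their values were seen, behaved alike: A_55_P2091328 was at −4.57 and −5.05 in Ts8 and at 0.09 and 0.07 in Ts11 (−4.89), and 1700108F19Rik was at −8.17 and −8.41 in Ts8, where no array was well above background, and at −4.30 and −4.24 in Ts11. The 60-base probes are shown because they fix what was measured at this locus; all 3 lie on the forward strand of mm9, at chr14:77086851-77086910, chr14:77080134-77080193 and chr14:77081656-77081715.
lincRNA chr14:77077374-77086910: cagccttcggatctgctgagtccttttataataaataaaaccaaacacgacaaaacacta
1700108F19Rik: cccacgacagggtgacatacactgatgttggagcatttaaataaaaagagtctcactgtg
A_55_P2091328: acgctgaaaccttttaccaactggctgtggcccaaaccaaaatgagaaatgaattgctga

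Other lincRNAs also stood out. The lincRNA chr6:53808521-53817132 (forward strand) was at −5.85 and −6.45 in Ts8 and at −3.51 and −3.46 in Ts11 (−2.66, adjusted p = 0.00059). It was well above background on only 1 of the 2 Ts8 arrays. The lincRNA chr13:21860993-21862345 (forward strand) was at −2.78 and −3.88 in Ts8 and at −5.89 and −5.66 in Ts11 (2.45, adjusted p = 0.0044), but its other probe gave 0.63. The lincRNA chr5:15176325-15223375 (reverse strand) was 2.42 higher, with 0.51 to 3.04 over its 5 probes. The probe of Speer4cos, itself 2.37 higher in Ts8, lies within its span on the other strand.

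Gene families of the X chromosome that are normally active in the germline were far lower in Ts8 than in Ts11. Of the 10 lowest named genes off chromosomes 8 and 11, 8 belong to these families: Xlr3a (−3.45), Xlr3b (−2.92) and Xlr4a (−2.85) of the X-linked lymphocyte-regulated family, Rhox2c (−3.35), Rhox2e (−3.35) and Rhox4a (−2.91) of the reproductive homeobox cluster, and Magea8 (−3.23) and Magea1 (−3.08) of the melanoma antigen family, which is otherwise known from testis and tumours. Rhox2c was at −1.55 and −1.68 in Ts8 and at 1.81 and 1.67 in Ts11, a 10.2-fold difference (SE 0.13 on the log2 scale, adjusted p = 6.1e-05). Xlr3a was at −2.36 and −2.45 in Ts8 and at 1.10 and 1.00 in Ts11 (SE 0.17, adjusted p = 0.00011). Magea1 was at −5.29 and −5.39 in Ts8 and at −2.47 and −2.05 in Ts11 (adjusted p = 0.00074). Magea8 was well above background on only 1 of the 2 Ts8 arrays, so the size of its difference is uncertain. All 8 kept their call without any single array.

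Counted over whole families, a step chosen after the values were seen, 8 of 8 Xlr genes, 12 of 18 Rhox genes, 5 of 6 Magea genes and 3 of 4 Fthl17 genes were lower in Ts8, and none was higher. Over all genes tested 3.3% were lower and 4.52% higher. The family medians were −2.71 for Xlr, −1.10 for Rhox, −2.95 for Magea and −2.07 for Fthl17. With Rhox3a, Magea5 and Magea10, which were well above background on no Ts8 array, at their lower bounds, the medians were −1.06 for Rhox and −2.95 for Magea. Within the Rhox cluster the size differed widely: Rhox2c differed by −3.35, Rhox4e by −1.31, Rhox5 by −0.89 and Rhox8 by 0.08, and Rhox8 was not called. Ts11 exceeded the WT mean in 8 of 8 Xlr, 15 of 18 Rhox and 6 of 6 Magea genes, and Ts8 did so in 7, 5 and 1 of them, in contrasts that share the WT arrays. The median level of the Xlr genes was −1.61 and −1.81 in Ts8 and 1.05 and 1.00 in Ts11, beside −1.92 and −1.68 in WT, so Ts8 lay close to WT there. Over the whole chromosome, 35 X genes (3.12%) were higher in Ts8 and 105 (9.36%) lower of 1122, and its shift of −0.16 became −0.11 without the Xlr, Rhox and Magea genes.

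Copies within these families are close relatives, and their probes cannot be assumed to separate them. The probe pairs below are shown to make this visible: the probes of Magea8 (chrX:151420352-151420411) and Magea5 (chrX:151487639-151487698), both on the reverse strand of mm9, share 56 of 60 bases, with the 4 differing bases in capitals. The probe of Xlr3b (chrX:70448087-70448146, forward strand) shares a stretch of 37 bases, in capitals, with that of Xlr4a (chrX:70319816-70319875, reverse strand).
Magea8: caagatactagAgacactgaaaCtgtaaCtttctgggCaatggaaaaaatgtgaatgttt
Magea5: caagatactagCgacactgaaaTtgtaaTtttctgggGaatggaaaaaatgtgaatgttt
Xlr3b: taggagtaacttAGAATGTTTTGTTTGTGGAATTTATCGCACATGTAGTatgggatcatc
Xlr4a: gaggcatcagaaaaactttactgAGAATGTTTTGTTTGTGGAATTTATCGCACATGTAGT

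The remaining lowest genes were Pramel6 and Iqca. Pramel6, a PRAME-like gene of the early embryo, was at −4.65 and −6.09 in Ts8 and at −1.53 and −1.56 in Ts11 (−3.83 ± 0.43, adjusted p = 0.0024), and the difference from WT was −0.96 in Ts8 and 2.87 in Ts11. Iqca was at −6.60 and −7.41 in Ts8 and at −3.69 and −4.31 in Ts11 (−3.00, adjusted p = 0.0036). Pramel6 and Iqca were well above background on only 1 of the 2 Ts8 arrays, so the sizes of their differences are uncertain. Where no array of a line was well above background, the fold is a lower bound against the higher of the lowest signal called well above background and the dim probe's own signal on each array. By this measure Magea5 was at least 8.95-fold lower in Ts8, the serpin gene Serpinb1b at least 3.15-fold lower (adjusted p = 0.0055) and Prame at least 2.76-fold lower. Prame lost its call without any 1 of the 4 arrays (adjusted p between 0.11 and 0.13) and with the replicate block (0.059).

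The 10 named genes furthest above Ts11 off chromosomes 8 and 11 differed by 1.97 to 2.66. Apcs, serum amyloid P component, was at −0.81 and −1.33 in Ts8 and at −3.65 and −3.82 in Ts11, 6.33-fold or 2.66 ± 0.22 higher (adjusted p = 0.00091), with WT at −1.36 and −1.62 and Ts6 at −4.47 and −3.95. Pdx1, the homeobox factor of the pancreas, was at −1.43 and −2.13 in Ts8 and at −4.23 and −4.15 in Ts11 (2.41, adjusted p = 0.0011). Oxtr, the oxytocin receptor, was at −0.07 and −0.61 in Ts8 and at −2.35 and −2.39 in Ts11 (2.03, adjusted p = 0.0011). For all 3 the difference from WT was called in Ts11 (−2.25, −1.83 and −1.52) and not in Ts8 (0.42, 0.58 and 0.51), in contrasts that share the WT arrays. Spz1, a transcription factor of spermatogenesis, was at −3.57 and −2.79 in Ts8 and at −5.47 and −5.26 in Ts11 (2.18, adjusted p = 0.0037), and stood 1.85 above WT in Ts8 (adjusted p = 0.023) and −0.34 from WT in Ts11 (0.47).

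The others of the highest 10 were Speer4cos (2.37), the PRAME-like genes Pramel16 (2.14) and Pramel37 (1.98), Cdx1 (2.03), Arhgap36 (1.97) and Mcoln3 (1.97), an endolysosomal channel gene whose other probe gave 0.79. Cdx1, a caudal homeobox gene and Wnt target, was at −2.22 and −2.12 in Ts8 and at −4.47 and −3.93 in Ts11, with WT between the lines at −3.10 and −3.15. Arhgap36 and Pramel37 differed from WT in both lines, Arhgap36 by 1.04 in Ts8 and −0.93 in Ts11 and Pramel37 by 0.73 in Ts8 and −1.25 in Ts11. The PRAME-like family went both ways: of 26 tested members, counted after the values were seen, 11 were higher in Ts8 and 5 were lower, including Pramel6, Pramel7 and Prame. The shares over all genes tested were 4.52% higher and 3.3% lower. The cytochrome P450 genes Cyp2c68 and Cyp2c67 were at least 3.53-fold and 3.41-fold higher in Ts8 (adjusted p = 0.00089 and 0.023). Cyp2c67 lost its call without Ts8 replicate 1 (0.067), Ts8 replicate 2 (0.11) or Ts11 replicate 1 (0.10).

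**Figure D4:**
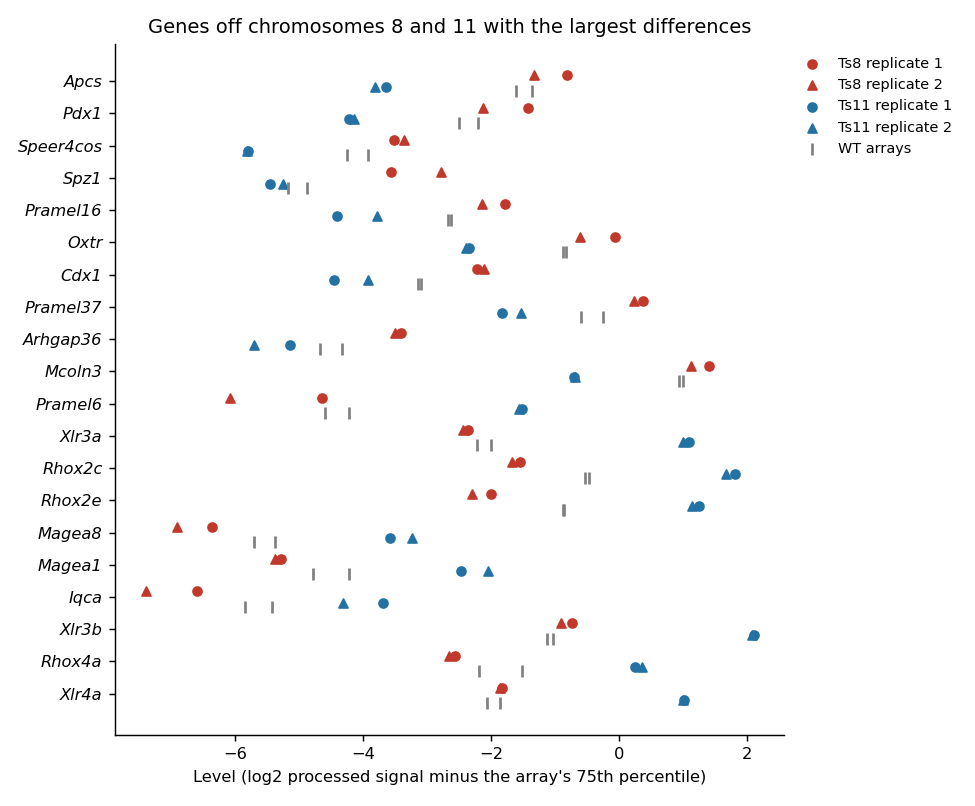
Level of the 10 highest and the 10 lowest named genes off chromosomes 8 and 11 (log2 relative to the 75th percentile of the array), with Ts8 arrays in red, Ts11 arrays in blue and the WT arrays as grey ticks for orientation. Ts8 and Ts11 arrays do not overlap for any of the 20 genes, a condition of their choice, and Apcs is at −0.81 and −1.33 in Ts8 and at −3.65 and −3.82 in Ts11.

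A pair of Y-linked transcripts, Eif2s3y and Ddx3y, separated the lines from each other and from WT. Of 11 genes in the list of Y-linked genes and Xist, 3 were higher in Ts8 (Eif2s3y, Ddx3y and Tsix) and 0 lower. Eif2s3y, the Y-linked subunit of a translation initiation factor, was at −3.08 and −2.99 in Ts8, at −8.78 and −8.21 in Ts11, where no array was well above background, and at 0.84 and 0.70 in WT. In Ts6 it was at −8.18 and −8.14, near Ts11, and in Ts15 at 0.85 and 0.77, near WT. It was at least 9.17-fold higher in Ts8 than in Ts11 (adjusted p = 2.2e-05), and 3.81 below WT on the log2 scale. Ddx3y, a Y-linked RNA helicase, was at −5.10 and −4.50 in Ts8, at −8.69 and −8.17 in Ts11 and at −0.69 and −0.69 in WT, at least 2.69-fold higher in Ts8 than in Ts11 (adjusted p = 0.00034). Uty was well above background on no array of either line. Other Y-linked probes did not show this pattern: Ube1y1 was at 1.45 and 1.55 in Ts8 and at 1.79 and 1.33 in Ts11 (adjusted p = 0.90), and Sry, the sex-determining gene, at −3.62 and −3.62 in Ts8 and at −3.47 and −3.69 in Ts11 (0.93), and the arrays of the lines overlapped in both. Xist, the RNA that coats the inactive X, was at 0.64 and 0.96 in Ts8 and at 0.97 and 0.65 in Ts11 (−0.01, adjusted p = 0.99), and its antisense partner Tsix was 1.35 higher in Ts8. That call was lost without Ts8 replicate 2 (0.11) or Ts11 replicate 1 (0.097).

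Most transcripts of the 2-cell-like list were higher in Ts8. Of 20 tested, 14 were higher and 2 were lower, with a median difference of 1.05, beside 4.52% higher and a median of 0.03 over all genes tested. Zscan4a, a member of the zinc-finger family that marks this state, was at 2.73 and 2.73 in Ts8 and at 0.76 and 1.34 in Ts11, 3.20-fold or 1.68 ± 0.19 higher (adjusted p = 0.0024). Its relatives Zscan4c (1.45), Zscan4e (1.34) and Zscan4f (1.16) were higher too, but near-identical copies may share signal. Dux, the homeobox activator of these genes, was at −1.57 and −1.49 in Ts8 and at −3.54 and −3.35 in Ts11 (1.92 ± 0.19, adjusted p = 0.0015). Usp17lc (1.45), Tcstv1 (1.46), Tcstv3 (0.80), Tdpoz4 (1.08), Arg2 (1.23), Tmem92 (1.01), Zfp809 (0.67), the predicted genes Gm4340 and Gm8300 made up the rest of those higher. The 2 lower genes were Pramel6 and Pramel7 (−2.08), which are also found in the preimplantation embryo. Zscan4a was 0.49 from WT in Ts8 and −1.19 in Ts11, and Dux 1.09 and −0.83. Between 9 and 12 members were called higher when any 1 array was left out, 9 of them without Ts8 replicate 1 and 9 without Ts8 replicate 2.

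Germ cell genes moved in both directions. Of 52 tested, 7 (13.5%) were higher in Ts8 and 6 (11.5%) lower, with a median of 0.05, beside 4.52% higher and 3.3% lower over all genes tested. Asz1, a factor of the piRNA pathway, was at −4.74 and −4.55 in Ts8 and at −2.57 and −2.34 in Ts11 (−2.19 ± 0.19, adjusted p = 0.00095), and Terb2, which ties telomeres to the nuclear envelope in meiosis, differed by −1.53 (adjusted p = 0.0031). Tex19.2 (−1.30), Tex19.1 (−0.58) and Hormad2 (−1.21), all 3 on chromosome 11, and the bromodomain gene Brdt (−1.04) were the others that were lower. Ddx4 (0.78), Tdrd1 (0.97), Tdrkh (1.05) and Mov10l1 (0.83) of the piRNA machinery and Mei1 (1.09), Msh4 (0.81) and Syce2 (0.51) of meiosis were higher. Without Ts8 replicate 2 or without Ts11 replicate 1 the counts were 3 higher and 4 lower, and without Ts11 replicate 2 they were 4 and 4. Hormad2 lost its call without Ts8 replicate 1 (0.060) or Ts11 replicate 2 (0.082).

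Among 28 naive pluripotency genes, 4 (14.3%) were lower in Ts8 and 1 (3.57%) higher, with a median of −0.09, beside 3.3% lower and 4.52% higher over all genes. Dppa3, a maternal factor that guards DNA methylation, was at −1.36 and −1.98 in Ts8 and at 1.02 and −0.02 in Ts11, 4.49-fold lower (−2.17 ± 0.35, adjusted p = 0.011). WT had Dppa3 at −2.68 and −2.76, and Ts6 at 0.58 and 0.07. Tbx3 (−0.72), Nr5a2 (−0.65) and Tfcp2l1 (−0.61), transcription factors of the naive network, were the others that were lower, and the RNA-binding protein gene Lin28a was higher (0.51). These calls depended on single arrays: without Ts8 replicate 2, 0 were left in limma, with adjusted p-values of 0.069 for Dppa3, 0.12 for Tbx3, 0.16 for Nr5a2 and 0.095 for Tfcp2l1. Without Ts11 replicate 1 or Ts11 replicate 2, 1 gene was left, and Lin28a was not called with any 1 of the 4 arrays left out. Klf4 differed by −0.29 and Esrrb by −0.35, and neither was called.

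The unfolded protein and amino acid stress response was lower in Ts8 for every member that was called. Of 44 genes, 7 (15.9%) were lower and 0 higher, with a median of −0.37, beside 3.3% lower and a median of 0.03 over all genes tested. Chac1, a glutathione-degrading enzyme induced by this response, was at −0.40 and −0.66 in Ts8 and at 0.71 and 0.52 in Ts11, 2.21-fold lower (−1.14 ± 0.16, adjusted p = 0.0057). Ero1b (−1.25), an oxidase of the endoplasmic reticulum, its chaperones Sdf2l1 (−0.98) and Hyou1 (−0.96), the pseudokinase Trib3 (−0.91), the transcription factor Xbp1 of chromosome 11 (−0.77) and Herpud1 of chromosome 8 were the other 6. The regulators Atf4 (−0.34) and Ddit3 (−0.61) and the chaperone Hspa5 (−0.24) had values below 0 and were not called. Chac1 was −0.37 from WT in Ts8 and 0.77 in Ts11. Chac1 and Herpud1 kept their call without any single array, but the count of 7 fell to 3 without Ts8 replicate 2 and to 2 without Ts11 replicate 1 or Ts11 replicate 2. Ero1b then had adjusted p-values of 0.17, 0.16 and 0.068, Sdf2l1 of 0.19, 0.17 and 0.053 and Hyou1 of 0.19, 0.15 and 0.095, and Hyou1 also lost its call with the replicate block (0.058). The count was also 2 with passage as a covariate, 2 without the filter on dim probes and 3 on slide 1 alone.

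Many promoters of this response carry the stress response element of the endoplasmic reticulum, searched here as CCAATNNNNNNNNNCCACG on both strands from 250 bases before to 50 after the start site. RefSeq promoters (GRCm38.p6) were found for 38 of the 44 members, and 9 of these held the motif, against 0.137% of all 27025 genes with a promoter. Because the list was made of genes of this response, a higher share follows from its choice and is no result of these data. The 9 genes with the motif had differences between −1.25 and −0.05 (median −0.34), and the 29 without it between −1.14 and −0.01 (median −0.37). Of the 7 genes lower in Ts8, 6 had a promoter and 1, Ero1b, held the motif. Its promoter and those of Dnajc3 (−0.70, not called) and Creld2 (−0.60, not called) are shown with the motif in capitals, on the plus strand at chr13:12565633-12565932, chr14:118937682-118937981 and chr15:88819396-88819695 of GRCm38.p6. In Ero1b and Creld2 the motif is on the opposite strand.
Ero1b: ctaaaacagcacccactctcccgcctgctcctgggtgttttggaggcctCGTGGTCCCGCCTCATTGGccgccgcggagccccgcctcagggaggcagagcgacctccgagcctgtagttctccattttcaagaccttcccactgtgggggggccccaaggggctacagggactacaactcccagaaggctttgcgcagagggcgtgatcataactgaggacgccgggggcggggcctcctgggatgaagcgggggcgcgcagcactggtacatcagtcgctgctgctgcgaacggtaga
Dnajc3: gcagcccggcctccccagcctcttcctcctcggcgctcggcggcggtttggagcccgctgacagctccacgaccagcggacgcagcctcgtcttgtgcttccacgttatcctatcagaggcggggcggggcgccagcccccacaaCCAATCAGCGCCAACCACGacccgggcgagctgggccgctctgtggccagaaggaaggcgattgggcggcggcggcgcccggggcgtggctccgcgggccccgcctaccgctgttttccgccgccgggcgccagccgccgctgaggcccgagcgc
Creld2: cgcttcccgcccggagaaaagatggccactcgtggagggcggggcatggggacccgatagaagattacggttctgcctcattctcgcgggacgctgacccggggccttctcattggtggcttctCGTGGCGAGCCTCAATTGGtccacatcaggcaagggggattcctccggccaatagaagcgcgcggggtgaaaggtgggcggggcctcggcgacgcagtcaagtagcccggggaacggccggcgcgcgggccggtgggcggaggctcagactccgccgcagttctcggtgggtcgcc

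Interferon and antigen presentation genes were mainly lower in Ts8. Of 48 tested, 9 (18.8%) were lower and 2 (4.17%) higher, with a median of −0.34, beside 3.3% and 4.52% over all genes. Psmb8, a subunit of the immunoproteasome, differed by −1.40 ± 0.29 (adjusted p = 0.029), and Xaf1, a proapoptotic interferon target, was at 1.36 and 1.19 in Ts8 and at 2.30 and 2.18 in Ts11 (−0.97 ± 0.13, adjusted p = 0.0052). Oas1a (−1.12), a sensor of double-stranded RNA, the regulator Irf7 (−0.97), Usp18 (−0.48) and the guanylate-binding protein gene Gbp2 (−0.86) were lower, as were Ifi35 (−0.95), Igtp (−1.01) and Irgm1 (−0.96), which lie on chromosome 11 as Xaf1 does. The 2 that were higher, Irf8 (1.42) and Nlrc5 (1.26), a regulator of class I genes, lie on chromosome 8, and the other probe of Nlrc5 gave 0.35. Psmb8 and Nlrc5 departed from WT in Ts8 (−1.46 and 1.70) rather than in Ts11 (−0.06 and 0.44). Without Ts8 replicate 2 the counts were 0 higher and 1 lower, without Ts11 replicate 1 they were 1 and 1, and without Ts11 replicate 2 they were 1 and 5. Psmb8, Nlrc5 and Oas1a lost their call in each of these 3 cases (adjusted p between 0.054 and 0.13), and Irf8 without Ts8 replicate 2 (0.073). The number lower was 4 with passage as a covariate, 3 without the filter on dim probes, 3 on slide 1 alone and 14 in the deposited series table.

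Some feedback and target genes of several signalling pathways were higher in Ts8. In the Nodal, BMP and TGF-beta list 5 of 35 genes (14.3%) were higher and 0 lower, beside 4.52% higher over all genes. Among them, the Nodal antagonists Lefty1 (3.28 and 2.96 in Ts8, 2.29 and 1.65 in Ts11) and Lefty2 (3.36 and 2.69 in Ts8, 2.21 and 1.68 in Ts11) differed by 1.15 and 1.08. The receptor gene Acvr2b (0.52) and the ligand gene Gdf1 of chromosome 8 (0.92) were also higher, but the second probe of Gdf1 gave −0.26 and with the mean of its probes it was not called (0.49). Both Lefty genes were near the WT level in Ts8 (0.09 and −0.06) and below it in Ts11 (−1.06 and −1.14). Lefty1 lost its call without Ts8 replicate 1 (0.080), Ts8 replicate 2 (0.055) or Ts11 replicate 2 (0.067), and Lefty2 without Ts8 replicate 1 (0.095) or Ts11 replicate 2 (0.14). The list count fell to 2 higher without Ts8 replicate 1 or Ts11 replicate 2 and to 3 without Ts8 replicate 2, and without Ts8 replicate 1 there was also 1 lower.

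In the Wnt list 6 of 34 genes (17.6%) were higher and 1 (2.94%) lower, beside 4.52% and 3.3% over all genes tested. Beside Cdx1 these were the feedback inhibitors Nkd1 (1.34) and Sfrp1 (0.64) of chromosome 8, the secreted enhancers Rspo1 (0.71) and Rspo3 (0.62) and the signal transducer Dvl1 (0.42). Off chromosomes 8 and 11 the Wnt list had 4 higher and 0 lower of 23. Znrf3, a ubiquitin ligase of chromosome 11 that removes Wnt receptors, was lower (−0.70) and lost its call without Ts8 replicate 2 (0.057). Nkd1 lost its call with the mean of its probes (0.36), and Rspo1 without any 1 of the 4 arrays (adjusted p between 0.062 and 0.083). The count of 6 fell to 2 without Ts8 replicate 1, Ts8 replicate 2 or Ts11 replicate 1 and to 3 without Ts11 replicate 2. Of 36 FGF and ERK feedback genes 4 (11.1%) were higher in Ts8 and 0 lower. Off chromosomes 8 and 11 that list had 2 higher and 0 lower of 26. The 4 higher genes were Il17rd (0.96), an inhibitor of FGF signalling, Etv1 (0.69), and the immediate-early genes Junb (0.66) and Ier2 (0.51) of chromosome 8. With 1 array left out fewer of them were called, 0 without Ts11 replicate 1, 1 without either Ts8 array and 2 without Ts11 replicate 2.

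Several imprinted genes, among them a pair that limits growth, were higher in Ts8. Of 43 tested, 6 (13.95%) were higher and 1 (2.33%) lower, with a median of 0.00, beside 4.52% and 3.3% over all genes. Cdkn1c, a cyclin-dependent kinase inhibitor, was at 2.15 and 2.44 in Ts8 and at 0.89 and 0.74 in Ts11, 2.80-fold higher (1.48 ± 0.13, adjusted p = 0.00098). Its neighbour Phlda2 was at 1.05 and 1.27 in Ts8 and at −0.20 and −0.35 in Ts11 (1.44 ± 0.18, adjusted p = 0.0045). In both, WT lay between the lines. Of the maternally expressed noncoding RNAs of chromosome 12, Meg3 (0.94) and Mirg (0.83) were higher. Mirg was at 1.81 and 2.13 in Ts8, near WT (2.00 and 1.95), and at 1.24 and 1.03 in Ts11, near Ts6 (1.05 and 1.19). Meg3 was at 2.61 and 2.90 in Ts8, 2.10 and 1.52 in Ts11, 2.39 and 2.35 in WT and 1.43 and 1.41 in Ts6. Grb10 of chromosome 11 (0.79) and Gab1 of chromosome 8 (0.75) were also higher, and Zrsr1 of chromosome 11 was lower (−0.50). Counted after the values were seen, the stretch around Meg3, chr12:110750047-111079938 (mm9), held 9 array entries higher and 0 lower of 25 tested. Some of these entries overlap on the same strand, so they need not be separate transcripts. Meg3 lost its call without Ts8 replicate 2 (0.14) or Ts11 replicate 2 (0.070), and Mirg without the same arrays (0.063 and 0.064). Without Ts8 replicate 2 the list counts were 2 higher and 1 lower, and without Ts8 replicate 1, Ts11 replicate 1 or Ts11 replicate 2 they were 4 and 0. Chromosome 12 as a whole had 81 genes (7.19%) higher in Ts8 and 15 (1.33%) lower of 1126. The stretch at chr12:88041558-89699990 was also counted after the values were seen, and some of its entries overlap as well. It held 19 of the higher genes and 1 lower among 71 tested. Among those higher were the predicted genes Gm2022 (1.18) and Gm8300 (0.91), the second of them in the 2-cell-like list.

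Among lineage genes, the trophectoderm list had 4 of 24 genes (16.7%) lower in Ts8, beside 3.3% over all genes, and 1 higher. Among the lower genes, the connexin gene Gjb5 differed by −1.91, Tfap2c, a trophectoderm factor, by −0.84 and Hand1, a factor of placenta and heart on chromosome 11, by −1.76, while Phlda2 was the higher one. The second probe of Hand1 gave 0.29, and its call was lost without Ts8 replicate 2 (0.057) or with the mean of its probes (0.052). Gjb5 lost its call without Ts8 replicate 2 (0.12), Ts11 replicate 1 (0.15) or Ts11 replicate 2 (0.14) and with the replicate block (0.068). The list count of lower genes fell to 2 without Ts8 replicate 2. Among 24 mesoderm genes Cdx1 and Mesp2 (0.81) were higher and Hand1 and Evx1 (−1.41) lower, 8.33% in either direction. Of 24 neuroectoderm genes Sox11 (1.29) and Gfap (0.76) were higher, of 31 endoderm genes Srgn (1.00), of 21 primed epiblast genes Sox3 (0.88) and of 32 genes of the p53 pathway the apoptosis gene Pmaip1 (0.62). The share of 8.33% higher for neuroectoderm is above the 4.52% over all genes tested. Those of 3.23% for endoderm, 4.76% for primed epiblast and 3.13% for p53 are near or below it. Of these, Mesp2, Gfap, Srgn, Sox3 and Pmaip1 lost their call when at least 1 of the 4 arrays was left out (adjusted p up to 0.062 for Mesp2, 0.087 for Gfap, 0.13 for Srgn, 0.12 for Sox3 and 0.11 for Pmaip1).

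Adhesion and keratin genes split by chromosome in part. Of 47 tested, 3 (6.38%) were higher in Ts8, namely Cdh1 and Cdh3 of chromosome 8 and L1cam (1.27), and 4 (8.51%) lower, among them Gjb5 and, on chromosome 11, Itgb4 (−0.49) and Krt15 (−0.77). Over all genes tested 4.52% were higher and 3.3% lower. Off chromosomes 8 and 11 the list had 1 higher and 2 lower of 29, beside 3.87% higher and 2.62% lower over all genes there. L1cam lost its call without Ts8 replicate 2 (0.14), Ts11 replicate 1 (0.12) or Ts11 replicate 2 (0.065). Without Ts8 replicate 2, Ts11 replicate 1 or Ts11 replicate 2 the list had 1 higher and 1 lower. In the LIF and Stat3 list of 26, Il6st, the shared receptor of LIF, was lower (−0.43) beside Tfcp2l1, and Junb was higher. Il6st lost its call without any 1 of the 4 arrays (adjusted p between 0.075 and 0.13). In the glycolysis and hypoxia list of 37 only Pdk2 of chromosome 11 was called (−0.58), and in the metallothionein and oxidative stress list of 26 only Mt4. Pdk2 lost its call without Ts8 replicate 2 (0.11), Ts11 replicate 1 (0.099) or Ts11 replicate 2 (0.059). In the wider list of 31 feeder genes 0 were called by limma and 1 reached an unadjusted p under 0.05, with a median of −0.12, and without Ts8 replicate 1 there was 1 lower gene. The summed level of that list was 127 and 113 in Ts8 and 138 and 119 in Ts11, ranges that overlap, and its part in the differences above was not tested.

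The other list counts also varied with the processing. Without the filter on dim probes there were 4 higher and 4 lower germ cell genes, 3 higher imprinted genes, 3 higher Wnt genes, 2 higher FGF and ERK genes, and 1 higher and 2 lower adhesion genes. On slide 1 alone there were 4 higher and 4 lower germ cell genes, 4 higher imprinted genes, 3 higher Wnt genes, 2 higher FGF and ERK genes, and 2 higher and 2 lower adhesion genes. With passage as a covariate 3 Wnt genes and 2 FGF and ERK genes were higher and 2 adhesion genes lower. The deposited series table gave 3 higher Wnt genes and 2 higher FGF and ERK genes, and the imprinted list turned to 4 higher and 5 lower. With only the 4 arrays of Ts8 and Ts11, no list had more than 3 genes called higher or more than 2 called lower.

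**Figure D5:**
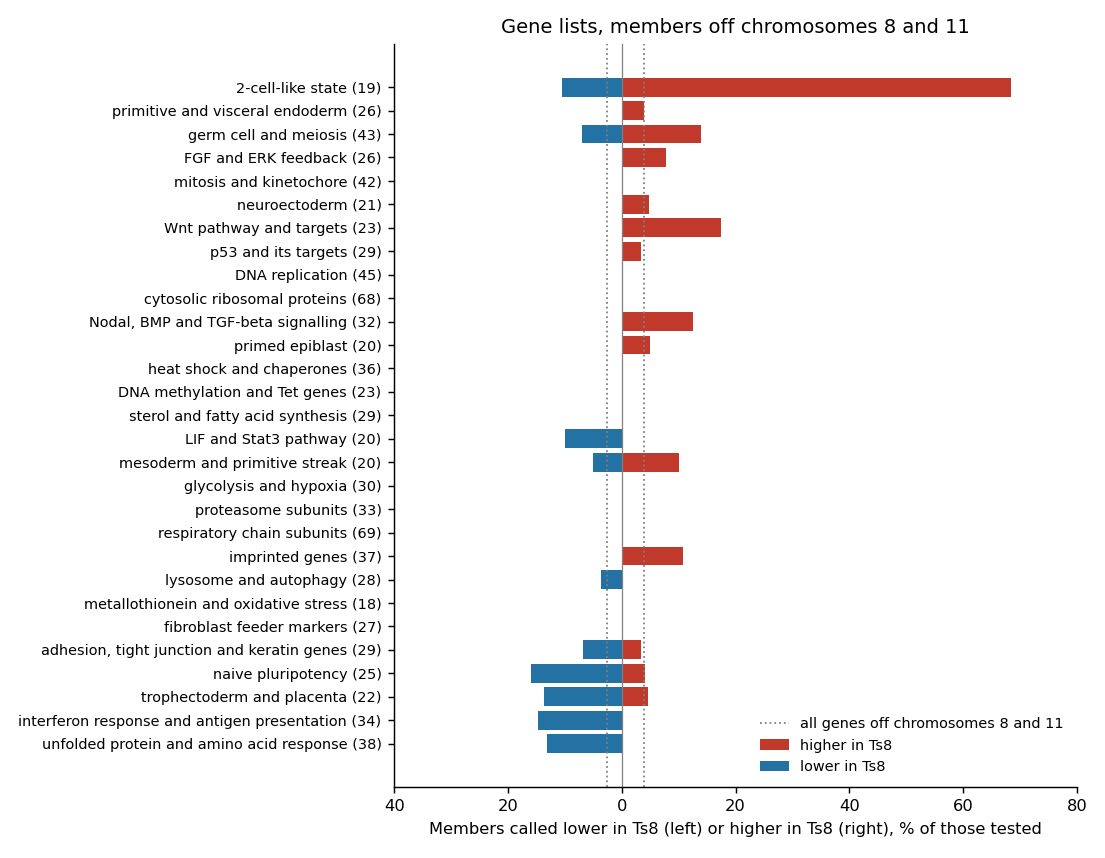
Share of each gene list called lower (blue, left) or higher (red, right) in Ts8, in percent of the members tested off chromosomes 8 and 11, whose number stands in brackets, without the list of Y-linked genes and Xist. Dotted lines mark the shares over all genes off these chromosomes, 3.87% higher and 2.62% lower. The 2-cell-like list has 13 higher and 2 lower of 19, the unfolded protein list 0 higher and 5 lower of 38, and the interferon list 0 higher and 5 lower of 34.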

How the data were processed

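Per the labels' protocols, RNA from 10 samples was linearly amplified and carried the dye Cy3. The authors deposited intensity values of Agilent Feature Extraction, version 10.7.3.1 per the file headers, with probes placed on mm9, spatial and multiplicative detrending on and background correction off. The deposited series table holds log2 values (correlation with the scanner's log2 signal 0.998 to 1.000, so direction and scale are known; column medians −3.41 to −3.31; its normalization and centring are not given in the sources used here) and served as an alternative.

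From the processed signal, log2 was taken and the array's 75th percentile over noncontrol spots subtracted, and spots of a probe were averaged. Of 55681 probes, 176 marked as outliers by the scanner were left out, and 43056 had passed the scanner's background flag on both arrays in some group. Names were updated by RefSeq accession (26762 of 28390 probes matched). The probe of highest mean stood for its gene, which gave 28193 genes, 4146 of them lincRNAs; 263 had no position. Of 659 called genes with several probes, 14.42% had a probe of opposite direction. Another 40 genes tested shared a probe sequence with another gene, and 0 of them were called in limma.

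limma 3.58.1 in R 4.3.3 fitted 1 mean per group over all 10 arrays (5 residual and 2.67 prior degrees of freedom), with two-sided tests of Ts8 minus Ts11 and Benjamini-Hochberg adjustment over all genes. Nothing in the labels ties replicates to separate cultures beyond their passage numbers. The p-values measure the spread between the 2 arrays of a group, pooled over all groups of the series, and not the spread within Ts8 and Ts11 alone. Chromosome shifts were tested by exact permutation over the arrays. Replicate numbers did not pair the samples by the labels: deviations of equal numbers correlated at 0.392 between Ts8 and Ts11 and at −0.1 to 0.206 in the other pairs of groups. The number of arrays limits the precision.

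The members, 30 gene lists (1109 distinct genes, 1098 on the array, 1071 tested) and tests were chosen with earlier results of these data known. Named genes were the called genes of largest difference with an established symbol and non-overlapping arrays (10 per direction off chromosomes 8 and 11, 6 and 3 on each of these, 3 bounds per direction, 2 lincRNAs per direction, up to 4 per list), plus Y-linked genes and Xist; most other called list members are named to complete their counts, and a few are not reported here. The fit was tested on simulated data. Tables were made with pandas 2.3.3 and numpy 2.4.6 in Python 3.11.15, and figures with matplotlib 3.10.9.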

Additional observations from a re-analysis of the deposited data

How the results depend on the processing

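The limma fit over all 10 arrays called 2202 genes. The count was 1457 without a filter on dim probes, 353 with only the 4 arrays of Ts8 and Ts11, which leaves few degrees of freedom, 2239 with the replicate block, and 983 to 1897 when 1 array was left out. Of the calls, 57.8% were higher in Ts8, against 42.5% in the deposited series table (median of all genes −0.05 there and 0.03 here). Chromosome 8 genes called higher, 274 here, numbered 163 without the filter, 28 with 4 arrays and 110 to 176 with 1 array left out. Chromosome 11 genes called lower, 268 here, numbered 409 in the series table, 157 without the filter, 21 with 4 arrays, 165 when passage entered as a covariate, 164 on slide 1 alone and 76 to 222 with 1 array left out. Genes called off both chromosomes, 1604 here, numbered 294 with 4 arrays and 768 to 1448 with 1 array left out. The chromosome 8 shift of 0.2889 became 0.2534 with normexp background correction, 0.295 with quantile normalization, 0.2968 in the series table, 0.2645 without the filter, 0.294 with the mean of all probes and 0.2618 as a median, and 0.2847 to 0.293 with 1 array left out. The chromosome 11 shift of −0.2593 became −0.229 with normexp, −0.2299 without the filter and −0.281 to −0.2376 with 1 array left out. Of the 2202 genes called, 3 had the opposite sign without the filter, 10 with the mean of all probes and 1 among those above background on all 4 arrays, where another probe stood for the gene or was averaged in, and none under the other settings tried. Fits with 1 array left out assume that the lone array varies like the other groups, and no group here is large enough for a check of outlying samples. The causes of these changes were not tested.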
